A study of Mus musculus with 12 samples.

Results

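The 10 genes described here are those of the epidermal growth factor (EGF) receptor system that the colon uses in epithelial repair: the ligand genes Areg, Ereg, Hbegf, Epgn, Tgfa, Btc and Nrg1, the receptor genes Egfr and Erbb3, and the feedback gene Lrig1. They were chosen by name, and a probe belonged to a gene where its accession matched that gene in a RefSeq table. All 10 genes were matched, by 20 probes, among 23214 genes or transcripts tested. Of these probes 19 were kept, since a probe had to be well above background on both arrays of at least 1 group. The probe left out was a further probe of Btc, marked above background on 1 of 12 arrays. Where a gene had several kept probes, the one with the highest mean level stood for it.

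EGF family ligands are made as membrane proteins and released by ADAM proteases, and the freed ligand binds a receptor tyrosine kinase on the same or a neighbouring cell. The receptors pair up and signal through the RAS-ERK and PI3K-AKT relays and through STAT3, and the cell answers by migrating and dividing and by making inhibitors of the same pathway. In the gut this system is known for the closing of wounds and the regrowth of crypts after injury. Areg, Ereg, Hbegf, Epgn, Tgfa and Btc encode ligands of EGFR. Nrg1 encodes neuregulin, a ligand of ERBB3 and ERBB4 that comes largely from the stroma. Lrig1 encodes a membrane protein that lowers receptor levels and marks cells of the crypt base.

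Colon RNA of male C57BL/6J mice, labelled with Cy3, was measured on 12 one-colour Agilent arrays. The mice were wild type (WT) or carried a knockout labelled ATF6aKO or ATF6bKO. ATF6a and ATF6b are sensors of unfolded protein in the endoplasmic reticulum. The labels do not say how or in which cells the genes were disrupted, and give no age. For each genotype there were untreated mice (UT) and mice given drinking water with 3% dextran sulfate sodium (DSS), which damages the lining of the colon, for 3 days, with 2 arrays in each of the 6 groups. Whether the 2 arrays of a group stand for different animals is not in the labels, so p-values here reflect the scatter among these samples alone, and that scatter may be technical. The 4 WT samples have labels that contradict each other: titles and source names give one treatment, and descriptions and treatment fields the other. WT groups follow the titles and are named "titled UT" and "titled DSS". No WT difference is read as an effect of DSS. Each genotype was on a slide of its own, so genotype and slide cannot be told apart, whereas the groups of 1 genotype shared a slide.

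The level of a gene is the log2 processed signal minus the log2 of that array's 75th percentile signal. The 75th percentile was between 246 and 1186 intensity units, and between 66.0% and 76.9% of spots were well above background on an array. The targeted genes matched the labels. In ATF6aKO minus WT, the log2 difference of Atf6 was -3.92 (SE 0.159, limma adjusted p = 4.06e-05). In ATF6bKO minus WT, that of Atf6b was -6.09 (SE 0.689, limma adjusted p = 0.00186), with signal well above background on 1 of 4 ATF6bKO arrays. All 12 epithelial markers tested, among them Epcam and Cdh1, were above background in every group. The second ATF6bKO DSS array stood apart in its summed level of 12 squamous epithelial markers (keratins of stratified epithelium), 72.8 times the 75th percentile signal against 3.64 to 9.83 on the other 11 arrays.

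Epgn, Ereg, Areg and Btc lie next to each other in that order on chromosome 5, with 0 other protein-coding genes between them in the RefSeq annotation. Promoters of these neighbours are shown because Ereg and Areg passed the test for DSS over both knockouts and Epgn and Btc did not, a contrast between genes that was not itself tested. The table of RefSeq promoters (GRCm38.p6) held 6 of the 10 genes, and Ereg was not among them. The 250 bases before the start of Areg are chr5:91139349-91139598 on the plus strand, those of Epgn are chr5:91027267-91027516 on the plus strand, and those of Btc are chr5:91402995-91403244 on the minus strand. Each is written 5′ to 3′ in the direction of the gene, with matches of the motifs searched in capitals.
Areg: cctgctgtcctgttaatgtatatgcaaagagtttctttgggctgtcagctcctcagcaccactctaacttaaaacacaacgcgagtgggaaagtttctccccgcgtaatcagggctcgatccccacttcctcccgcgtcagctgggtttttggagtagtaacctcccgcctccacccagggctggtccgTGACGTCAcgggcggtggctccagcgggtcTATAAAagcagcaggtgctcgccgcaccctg
Epgn: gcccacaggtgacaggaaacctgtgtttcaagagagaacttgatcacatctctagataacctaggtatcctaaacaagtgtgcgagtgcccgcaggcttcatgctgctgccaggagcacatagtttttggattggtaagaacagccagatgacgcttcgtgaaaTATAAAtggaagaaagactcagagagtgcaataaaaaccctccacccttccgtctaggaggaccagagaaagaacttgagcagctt
Btc: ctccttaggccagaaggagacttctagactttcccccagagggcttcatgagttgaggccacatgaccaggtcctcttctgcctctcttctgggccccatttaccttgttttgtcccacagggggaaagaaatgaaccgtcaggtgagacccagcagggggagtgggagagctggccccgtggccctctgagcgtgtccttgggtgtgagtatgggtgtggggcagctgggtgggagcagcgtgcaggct

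Motifs were searched on both strands. They were the cAMP response element CRE (TGACGTCA), the AP-1 site (TGANTCA), the ATF6-binding UPRE (TGACGTGG, which shares its first 6 letters with the CRE), the ER stress element ERSE (CCAAT and CCACG with 9 bases between), the STAT site (TTCNNNGAA) and the TATA box (TATAAA). The Areg window held 1 CRE, whose first base is at -61 from the start, and 1 TATA box, whose first base is at -31. The CRE is in 1.56% and the TATA box in 12.3% of 32536 promoter windows of that length. The Epgn window held a TATA box at -86 and no other match. The Btc, Tgfa, Egfr and Lrig1 windows held no match. AP-1 was in 6.73%, STAT in 7.04%, UPRE in 0.569% and ERSE in 0.114% of all windows, and none of these was in the 6 windows. A match describes these letters only, and no match says only that they are not in this window.

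DSS was first compared with UT over both knockouts, on the 8 arrays whose labels agree, with genotype as a term. Of the 10 genes, 5 rose and 1 fell at a Benjamini-Hochberg adjusted p under 0.05 in limma, while 29.1% of all genes tested passed in either direction (13.3% rose and 15.8% fell). With normexp, another background correction, 4937 genes rose and 3424 fell, in place of 3079 and 3678. The genes that rose were Nrg1 (5.97-fold), Ereg (4.99-fold), Areg (3.67-fold), Hbegf (2.23-fold) and Egfr (1.42-fold), and Lrig1 fell (1.81-fold). Tgfa, Btc, Epgn and Erbb3 did not pass. The median log2 difference of the 10 genes was 0.52, beside -0.01 for all genes. In whole colon, a change in the number of cells of a type and a change in the RNA per cell cannot be told apart.

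**Figure D1:**
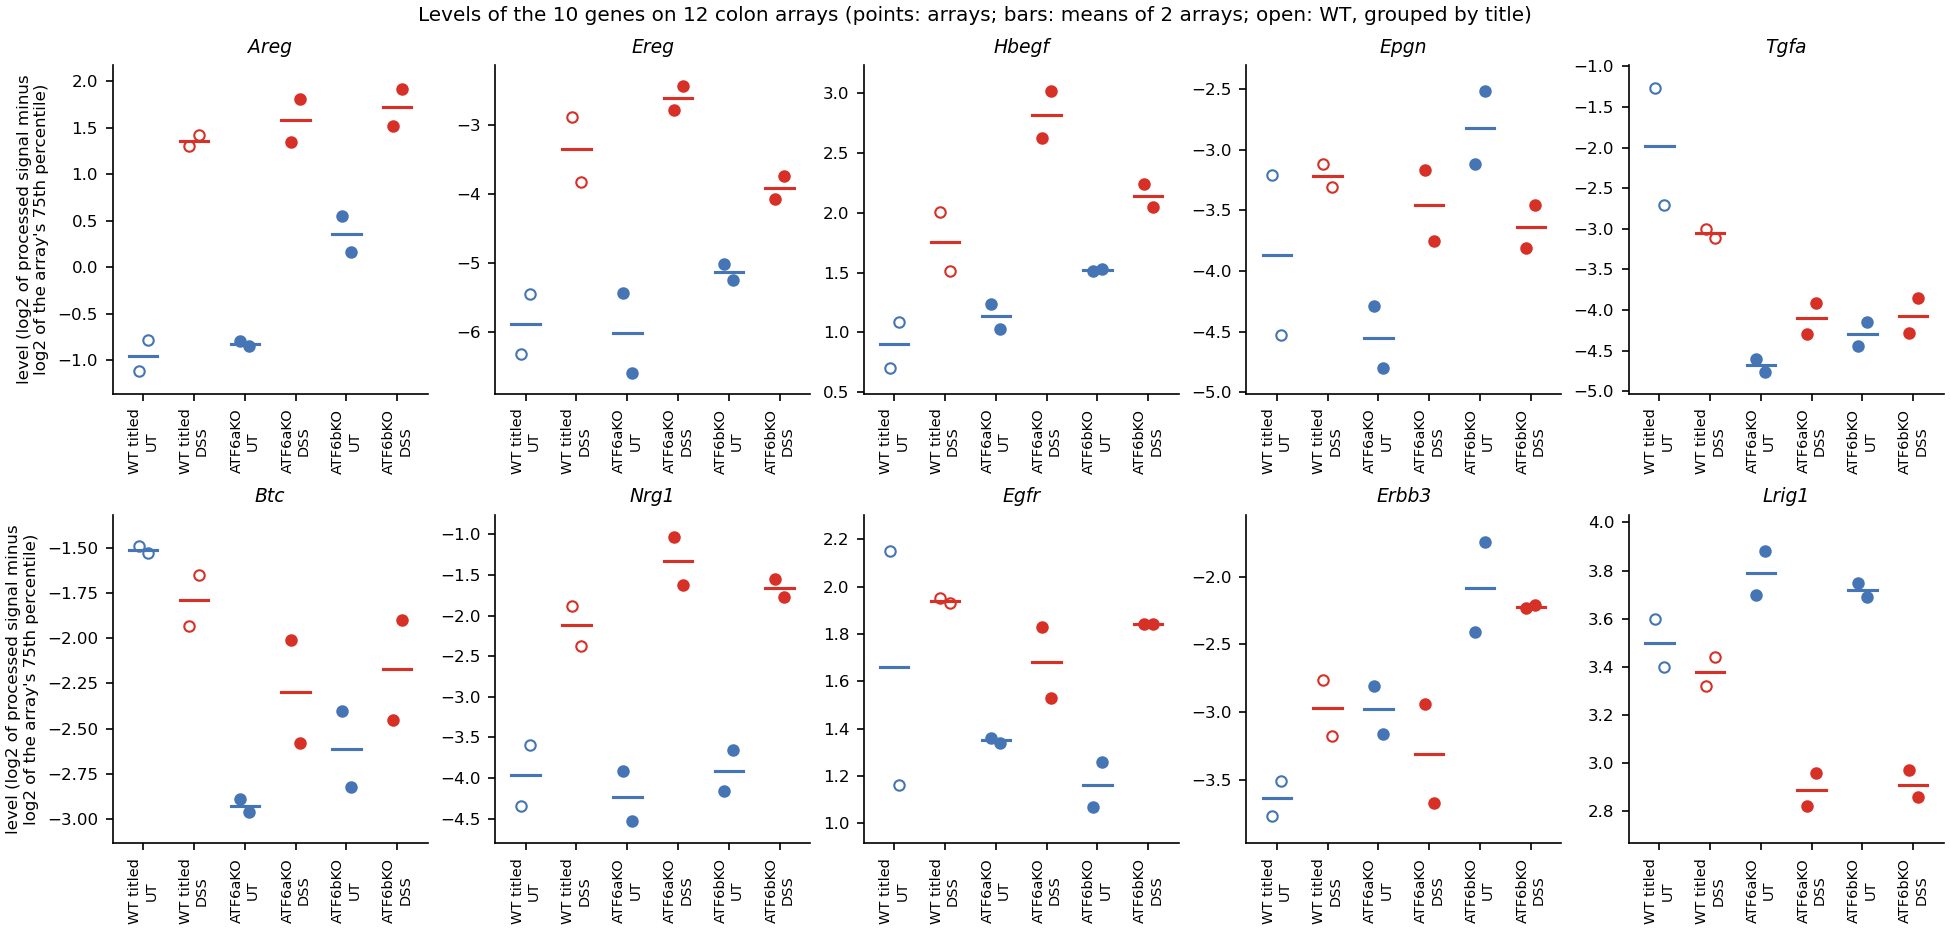
Level of each of the 10 genes on each of the 12 arrays, on the vertical axis as log2 processed signal minus the log2 75th percentile signal of the array, in 6 groups of 2 arrays with a bar at the mean. Areg, Ereg, Hbegf, Nrg1 and Egfr were higher on every DSS array than on every UT array of the same knockout, and Lrig1 was lower. Epgn was higher with DSS in ATF6aKO and lower in ATF6bKO. How many of all genes separated in this way was not counted.

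Areg encodes amphiregulin, a low-affinity EGFR ligand made by epithelium and by lymphoid and mast cells. In ATF6aKO its level was -0.79 and -0.84 on the UT arrays and 1.35 and 1.81 on the DSS arrays. In ATF6bKO it was 0.55 and 0.17 on the UT arrays and 1.52 and 1.92 on the DSS arrays. The DSS arrays of the knockouts overlapped, and both UT arrays of ATF6bKO were above both of ATF6aKO. Over both knockouts Areg rose by a log2 difference of 1.88 (SE 0.248, adjusted p = 0.00314). It rose by 2.39 in ATF6aKO (SE 0.234, adjusted p = 0.00361) and by 1.36 in ATF6bKO (SE 0.234, adjusted p = 0.00769). Without the second ATF6bKO DSS array the ATF6bKO call was lost (1.16, adjusted p = 0.0614), and also when only the 4 ATF6bKO arrays were fitted (adjusted p = 0.0555).

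Ereg encodes epiregulin, a broad EGF family ligand and the chromosomal neighbour of Areg. In ATF6aKO its level was -5.44 and -6.60 on the UT arrays and -2.78 and -2.44 on the DSS arrays. In ATF6bKO it was -5.02 and -5.25 on the UT arrays and -4.07 and -3.74 on the DSS arrays. Its signal was close to the floor without DSS: 1 of 2 UT arrays in each genotype was well above background, against both DSS arrays of each. Over both knockouts Ereg rose by 2.32 (SE 0.482, adjusted p = 0.0137), and in ATF6aKO by 3.41 (SE 0.453, adjusted p = 0.00828). In ATF6bKO the difference was 1.23 (95% interval 0.20 to 2.26, adjusted p = 0.114), which passed when only the 4 ATF6bKO arrays were fitted (adjusted p = 0.0488). The size depended on the background correction: with normexp the difference over both knockouts was 0.78 (adjusted p = 0.006).

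Hbegf encodes heparin-binding EGF-like growth factor, which binds EGFR and ERBB4 and is an early gene of wounded epithelium. In ATF6aKO its level was 1.24 and 1.03 on the UT arrays and 2.63 and 3.02 on the DSS arrays. In ATF6bKO it was 1.51 and 1.53 on the UT arrays and 2.24 and 2.05 on the DSS arrays. The arrays of the 2 treatments did not overlap in either knockout. Hbegf rose over both knockouts by 1.16 (SE 0.232, adjusted p = 0.0123) and in ATF6aKO by 1.69 (SE 0.235, adjusted p = 0.00933), a call lost without the second ATF6aKO UT array (1.58, adjusted p = 0.0606). In ATF6bKO the difference was 0.62 (95% interval 0.09 to 1.16, adjusted p = 0.120).

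Nrg1 had the largest difference of the 10 genes over both knockouts with the processed signal, though with normexp Areg (1.66) was above Nrg1 (1.45). In ATF6aKO its level was -3.92 and -4.53 on the UT arrays and -1.03 and -1.62 on the DSS arrays. In ATF6bKO it was -4.16 and -3.66 on the UT arrays and -1.55 and -1.77 on the DSS arrays. Every DSS array was above every UT array, with no overlap. Nrg1 rose by 2.58 over both (SE 0.238, adjusted p = 0.00136), by 2.90 in ATF6aKO (SE 0.350, adjusted p = 0.0058) and by 2.25 in ATF6bKO (SE 0.350, adjusted p = 0.00525). Its other 2 probes were also higher on every DSS array than on every UT array of the same knockout. Each was above background on 1 of 2 UT arrays in ATF6aKO and on 0 of 2 in ATF6bKO, so no size is given for ATF6aKO, and for ATF6bKO they give bounds: at least 5.37-fold and at least 3.17-fold higher with DSS. A bound sets the mean of the bright group against, for each dim array, the higher of the probe's own level and the lowest level marked above background on that array. With normexp the difference of Nrg1 over both knockouts had an adjusted p of 0.00016.

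The other 3 ligands did not pass in either knockout. Epgn encodes epigen, a low-affinity EGFR ligand. Its level was -4.29 and -4.80 on the ATF6aKO UT arrays and -3.17 and -3.75 on the ATF6aKO DSS arrays, against -3.12 and -2.52 on the ATF6bKO UT arrays and -3.81 and -3.46 on the ATF6bKO DSS arrays. The DSS arrays were above the UT arrays in ATF6aKO, with a difference of 1.09 (95% interval 0.12 to 2.06, adjusted p = 0.163). They were below the UT arrays in ATF6bKO, with a difference of -0.81 (95% interval -1.78 to 0.15, adjusted p = 0.250). Over both knockouts the difference was 0.14 (95% interval -0.84 to 1.12, adjusted p = 0.826).

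Tgfa encodes transforming growth factor alpha, an EGFR ligand of the resting gut lining. Its level lay between -4.76 and -3.85 on the 8 knockout arrays, and the difference with DSS was 0.40 (95% interval 0.03 to 0.78, adjusted p = 0.0976). Its other probe, printed 10 times on the array, gave -0.07. Btc encodes betacellulin, which binds EGFR and ERBB4. Its level lay between -2.96 and -1.90 on the knockout arrays, and the difference with DSS was 0.53 (95% interval 0.09 to 0.98, adjusted p = 0.0723). Both passed without the first ATF6bKO DSS array (Tgfa 0.53, adjusted p = 0.0499, and Btc 0.66, adjusted p = 0.0485), and Btc passed with normexp (0.40, adjusted p = 0.0187). Of the 4 neighbours on chromosome 5, Ereg and Areg rose over both knockouts, and Epgn at one end and Btc at the other did not pass. In ATF6aKO alone the differences of Epgn (1.09, adjusted p = 0.163) and Btc (0.63, adjusted p = 0.185) did not pass either.

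The receptors moved little. Egfr, the receptor of most of these ligands, had levels of 1.36 and 1.34 on the ATF6aKO UT arrays, 1.83 and 1.53 on the ATF6aKO DSS arrays, 1.07 and 1.26 on the ATF6bKO UT arrays and 1.84 and 1.84 on the ATF6bKO DSS arrays. Each DSS array was above each UT array. Egfr rose by 0.50 over both knockouts (SE 0.118, adjusted p = 0.0202). Of its other 3 probes, the one of the same RefSeq transcript gave 0.80, and those of another transcript gave 0.19 and 0.36. The call was lost without the first ATF6bKO DSS array (adjusted p = 0.0575), the second (0.0601) or the first ATF6aKO DSS array (0.0652). Within a knockout it did not pass, with 0.33 in ATF6aKO (95% interval -0.32 to 0.98, adjusted p = 0.524) and 0.68 in ATF6bKO (95% interval 0.03 to 1.32, adjusted p = 0.159). In ATF6bKO it passed when the fit held only the knockout arrays (adjusted p = 0.0269), where 19.8% of all genes passed in place of 12.9%.

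Erbb3 encodes the kinase-impaired neuregulin receptor that signals through its partner. Its level was -2.81 and -3.16 on the ATF6aKO UT arrays, -2.94 and -3.67 on the ATF6aKO DSS arrays, -2.41 and -1.74 on the ATF6bKO UT arrays and -2.23 and -2.21 on the ATF6bKO DSS arrays. The arrays of the treatments overlapped in both knockouts, and the difference over both was -0.23 (95% interval -0.74 to 0.27, adjusted p = 0.440). Its other 3 probes gave -0.54, -0.18 and -0.15. The ligand Nrg1 thus rose where the difference of its receptor gene Erbb3 did not pass.

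Lrig1 was the only one of the 10 genes that fell. Its level was 3.70 and 3.88 on the ATF6aKO UT arrays and 2.82 and 2.96 on the ATF6aKO DSS arrays. In ATF6bKO it was 3.75 and 3.69 on the UT arrays and 2.97 and 2.86 on the DSS arrays. The 4 DSS arrays lay between 2.82 and 2.97 and the 4 UT arrays between 3.69 and 3.88, with no overlap. Lrig1 fell over both knockouts by a log2 difference of -0.85 (SE 0.0885, adjusted p = 0.00179), in ATF6aKO by -0.90 (SE 0.160, adjusted p = 0.0175) and in ATF6bKO by -0.81 (SE 0.160, adjusted p = 0.0132). Each call within a knockout was lost without any 1 of that knockout's 4 arrays (adjusted p between 0.0641 and 0.140 in ATF6aKO and between 0.0503 and 0.0945 in ATF6bKO). The call over both knockouts was kept without each array in turn.

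Counted by genotype, 4 of the 10 genes rose and 1 fell in ATF6aKO, where 6.38% of all genes passed, and the median of the 10 was 0.86 beside 0.04 for all genes. In ATF6bKO 2 rose and 1 fell, where 12.9% of all genes passed (1327 rose and 1667 fell, or 982 and 820 with normexp), and the median was 0.53 beside -0.06. Ereg and Hbegf passed in ATF6aKO and not in ATF6bKO. The difference between the responses was tested on its own. None of the 10 genes passed for the response of ATF6aKO minus that of ATF6bKO in limma, where 0% of all genes passed. At an unadjusted p under 0.05 there were 4 of the 10 genes and 1854 of all genes (7.99%). These 4 were Ereg (2.18, 95% interval 0.73 to 3.64, adjusted p = 0.437), Epgn (1.90, 0.54 to 3.27, adjusted p = 0.458), Hbegf (1.07, 0.31 to 1.82, adjusted p = 0.452) and Areg (1.03, 0.28 to 1.79, adjusted p = 0.467). The intervals are for single genes and are not adjusted over all genes. For Nrg1 the difference was 0.65 (-0.48 to 1.77, adjusted p = 0.816) and for Lrig1 -0.09 (-0.61 to 0.42, adjusted p = 0.960).

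**Figure D2:**
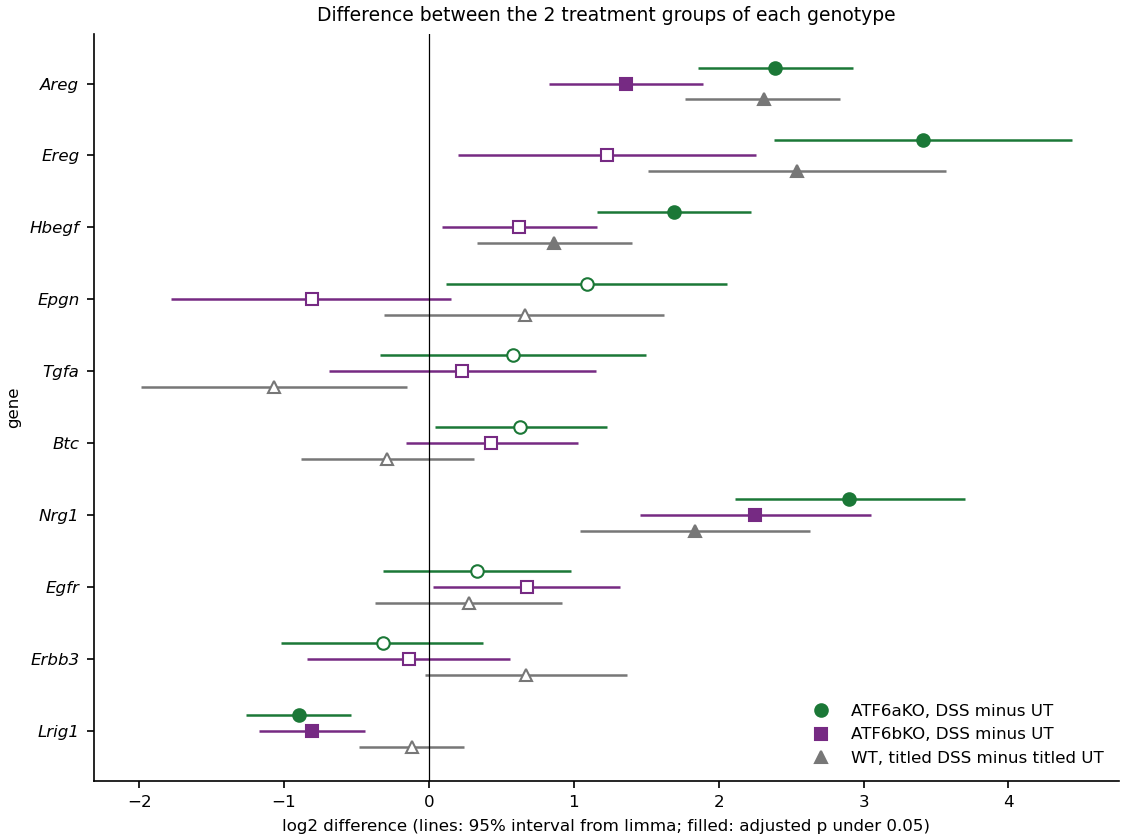
Log2 difference between the treatment groups of each genotype on the horizontal axis, with the 95% interval from limma as a line, for each of the 10 genes. Filled symbols have an adjusted p under 0.05: Areg, Ereg, Hbegf, Nrg1 and Lrig1 in ATF6aKO, Areg, Nrg1 and Lrig1 in ATF6bKO, and Areg, Ereg, Hbegf and Nrg1 between the WT groups.

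The 2 WT groups differed in 4 of the 10 genes, all higher on the arrays titled DSS, where 31.7% of all genes passed. Areg was -1.11 and -0.78 on the arrays titled UT and 1.30 and 1.42 on those titled DSS, a difference of 2.31 (SE 0.234, adjusted p = 0.0014). Ereg was -6.33 and -5.45 against -2.88 and -3.83, a difference of 2.54 (SE 0.453, adjusted p = 0.00571). Nrg1 was -4.34 and -3.59 against -1.88 and -2.37, a difference of 1.84 (SE 0.350, adjusted p = 0.00707). The groups did not overlap for any of the 3. With only the 4 WT arrays fitted, Ereg (adjusted p = 0.0506) and Nrg1 (adjusted p = 0.057) did not pass. Hbegf was 0.70 and 1.09 against 2.01 and 1.51, a difference of 0.86 (SE 0.235, adjusted p = 0.0244), lost without the first array titled DSS (0.61, adjusted p = 0.15) or the first titled UT (0.66, adjusted p = 0.103).

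The rest of the genes did not pass between the WT groups. Lrig1 was 3.60 and 3.4 on the arrays titled UT and 3.32 and 3.44 on those titled DSS, with overlap and a difference of -0.12 (95% interval -0.48 to 0.24, adjusted p = 0.590). Tgfa was -1.26 and -2.71 against -3.0 and -3.11, a difference of -1.07 (95% interval -1.99 to -0.15, adjusted p = 0.0735, or 0.0494 with quantile normalization). The probe of Tgfa with 10 spots gave 1.36, the opposite direction. Leaving out the second array titled UT made the difference -1.79 (adjusted p = 0.00133), leaving out the first made it -0.34, and the mean of both probes gave 0.15. Egfr was 2.15 and 1.16 against 1.95 and 1.93. Its 4 probes gave 0.28 and 0.55 for one RefSeq transcript and -0.69 and -0.37 for another, a split that was not tested. Erbb3 was -3.77 and -3.51 against -2.76 and -3.18 (0.67, 95% interval -0.03 to 1.37, adjusted p = 0.127), and its other probes gave 2.05, -0.65 and 0.19. Btc was -1.49 and -1.53 against -1.93 and -1.65 (-0.29, 95% interval -0.88 to 0.31, adjusted p = 0.433). Epgn was -3.21 and -4.53 against -3.12 and -3.31 (0.66, 95% interval -0.31 to 1.62, adjusted p = 0.267). Without the first array titled UT both Epgn (1.32, adjusted p = 0.0402) and Egfr (0.77, adjusted p = 0.0182) passed. Without the second, Egfr was at -0.22 and Epgn had an adjusted p of 0.993, so the sign for Egfr turned with the array left out.

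The response of each knockout minus the WT difference depends on how the WT labels are read, and both readings are given. By the titles, 0 of the 10 genes passed for ATF6aKO minus WT, where 7.67% of all genes passed, and 0 for ATF6bKO minus WT, where 14.7% passed. At an unadjusted p under 0.05 there were 5 and 3 of the 10 genes, beside 30.2% and 34.8% of all genes. The nearest to the threshold was Lrig1, with -0.78 for ATF6aKO (adjusted p = 0.0654) and -0.68 for ATF6bKO (adjusted p = 0.0722). By the descriptions, with the WT groups exchanged, 5 of the 10 genes passed for each knockout, beside 27.8% of all genes for ATF6aKO and 29.3% for ATF6bKO. Both differences share the 4 WT arrays. For ATF6aKO the differences became 4.70 for Areg, 5.95 for Ereg, 2.55 for Hbegf, 4.74 for Nrg1 and -1.02 for Lrig1. For ATF6bKO they became 3.67 for Areg, 3.77 for Ereg, 1.48 for Hbegf, 4.09 for Nrg1 and -0.93 for Lrig1. Areg, Ereg and Hbegf were below 0 for ATF6bKO by the titles (-0.95, -1.31 and -0.24), so the reading turns their sign.

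Genotypes were compared over both treatments, with each genotype on its own slide. The direction of all genes depended on the scaling here: ATF6aKO minus WT had 3407 genes higher and 4782 lower, 4252 and 2654 with normexp, and 10601 and 1477 in the authors' deposited values. ATF6bKO minus WT had 3179 higher and 3646 lower, 9502 and 2830 with normexp, and 9929 and 979 in the authors' deposited values. ATF6aKO minus ATF6bKO had 701 higher and 1424 lower, and 2626 and 10461 with normexp. Tgfa and Btc were lower in ATF6aKO than in WT, 2 of the 10 genes, where 35.3% of all genes passed. Tgfa differed by -1.87 (SE 0.410, adjusted p = 0.0102) and Btc by -0.96 (SE 0.239, adjusted p = 0.0162). The second probe of Tgfa gave 0.38. In ATF6bKO minus WT 4 of the 10 genes passed, where 29.4% of all genes passed. Areg was higher by 0.83 (SE 0.248, adjusted p = 0.0402) and Erbb3 by 1.16 (SE 0.250, adjusted p = 0.0145), and Tgfa was lower by -1.66 (SE 0.386, adjusted p = 0.0179) and Btc by -0.74 (SE 0.232, adjusted p = 0.0460). The second probe of Tgfa gave -0.06, and the other 3 of Erbb3 gave -0.24, 0.40 and 0.79. In ATF6aKO minus ATF6bKO, where 9.15% of all genes passed, Erbb3 alone of the 10 passed, lower by -1.0 (SE 0.213, adjusted p = 0.0375), with -0.34, -0.93 and -0.69 from its other probes. That call, and those of Areg and Btc in ATF6bKO minus WT, were each lost without 7 of the 8 arrays, taken 1 at a time. The Tgfa calls were lost with normexp (-0.68, adjusted p = 0.0959 in ATF6aKO, and -0.25, adjusted p = 0.464 in ATF6bKO), and in ATF6bKO also in the authors' deposited values (-1.02, adjusted p = 0.0509). The Btc calls were lost in the authors' deposited values (-0.30, adjusted p = 0.289 in ATF6aKO, and -0.09, adjusted p = 0.751 in ATF6bKO), and in ATF6bKO also with normexp (-0.15, adjusted p = 0.509). The Erbb3 call against WT was lost with the mean of its probes (0.52, adjusted p = 0.146). The fits against WT held treatment as a term, with WT by the titles. With the WT groups exchanged, the Areg difference in ATF6bKO minus WT stayed at 0.83 but no longer passed (adjusted p = 0.388). In that fit 21.4% of all genes passed. Btc did not pass in ATF6aKO without either UT array of that knockout (adjusted p = 0.0536 and 0.0523).

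The wider pathway was described by 5 gene lists, and the share of all genes that rose (13.3%) or fell (15.8%) over both knockouts is the background. Of the negative regulators of the EGF receptor and ERK, 8 of 20 tested rose and 0 fell, with a median of 0.31. Socs3, a cytokine-induced inhibitor of STAT3 signalling, rose by 2.64 (SE 0.156, adjusted p = 0.000681), from 0.89 to 1.47 on the UT arrays to 3.64 to 3.93 on the DSS arrays of the knockouts. Sh3kbp1, an adaptor of CBL in receptor endocytosis, rose by 1.33 (SE 0.144, adjusted p = 0.00198), and Spry4, a Sprouty inhibitor of RAS-ERK, by 0.95 (SE 0.172, adjusted p = 0.00843). The rest that rose were Dusp6, the ERK phosphatase (0.85), Ptpn1 (0.77), Spry2 (0.56), Spred1 (0.49) and Spry1 (0.40). Errfi1, a direct inhibitor of the EGFR kinase, did not pass (0.03, adjusted p = 0.911), and neither did Lrig2 (-0.01, adjusted p = 0.952) or Lrig3 (-0.38, adjusted p = 0.181). Lrig1 therefore fell where 8 other negative regulators rose.

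Of the immediate-early and ERK target genes, 8 of 21 rose and 4 fell, with a median of 0.05. Fosl1, the AP-1 subunit FRA1, rose by 2.17 (SE 0.308, adjusted p = 0.00388), Egr2 by 2.09 (SE 0.191, adjusted p = 0.00131) and Egr1 by 1.66 (SE 0.247, adjusted p = 0.00446). Plaur, Ier3, Ptgs2, Phlda1 and Junb rose as well (0.84 to 1.42). Hmga2, a chromatin protein of growing cells, fell by a log2 difference of -2.13 (SE 0.204, adjusted p = 0.00147), Etv4, an ETS factor, by -1.45 (SE 0.262, adjusted p = 0.00832), Myc by -0.68 (SE 0.151, adjusted p = 0.0174) and Ccnd1, cyclin D1, by -0.32 (SE 0.0880, adjusted p = 0.0356). Fos (-0.28, adjusted p = 0.445) and Jun (-0.10, adjusted p = 0.793) did not pass. The list thus split, with EGR and FRA1 genes up and the growth genes Myc and Ccnd1 down. Fosl1, Egr1, Egr2, Hmga2 and Etv4 also differed in the same directions between the WT groups (titled DSS minus titled UT: 2.35, 3.05, 1.85, -1.48 and -1.62).

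The other lists moved less. Of the ligand sheddases and their trafficking factors, 2 of 8 rose and 1 fell (median 0.25). Adam17, the protease that releases amphiregulin and HB-EGF, rose by 0.28 (SE 0.0767, adjusted p = 0.0332), Adam19 rose by 0.56 (SE 0.147, adjusted p = 0.0297), and Rhbdf1, an ADAM17 partner, fell by a log2 difference of -0.33 (SE 0.0984, adjusted p = 0.0446). None of the 3 passed without the first UT array of either knockout, either ATF6bKO DSS array or the first ATF6aKO DSS array. Of the receptor-proximal adaptors and the RAS-ERK-PI3K relay, 2 of 19 rose and 0 fell (median -0.03): Stat3 by 0.80 (SE 0.102, adjusted p = 0.00285) and Akt2 by 0.40 (SE 0.0870, adjusted p = 0.0155). Of the other EGF family ligands and receptors, 0 of 4 tested (Egf, Nrg4, Erbb2 and Erbb4) passed (median -0.30).

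**Figure D3:**
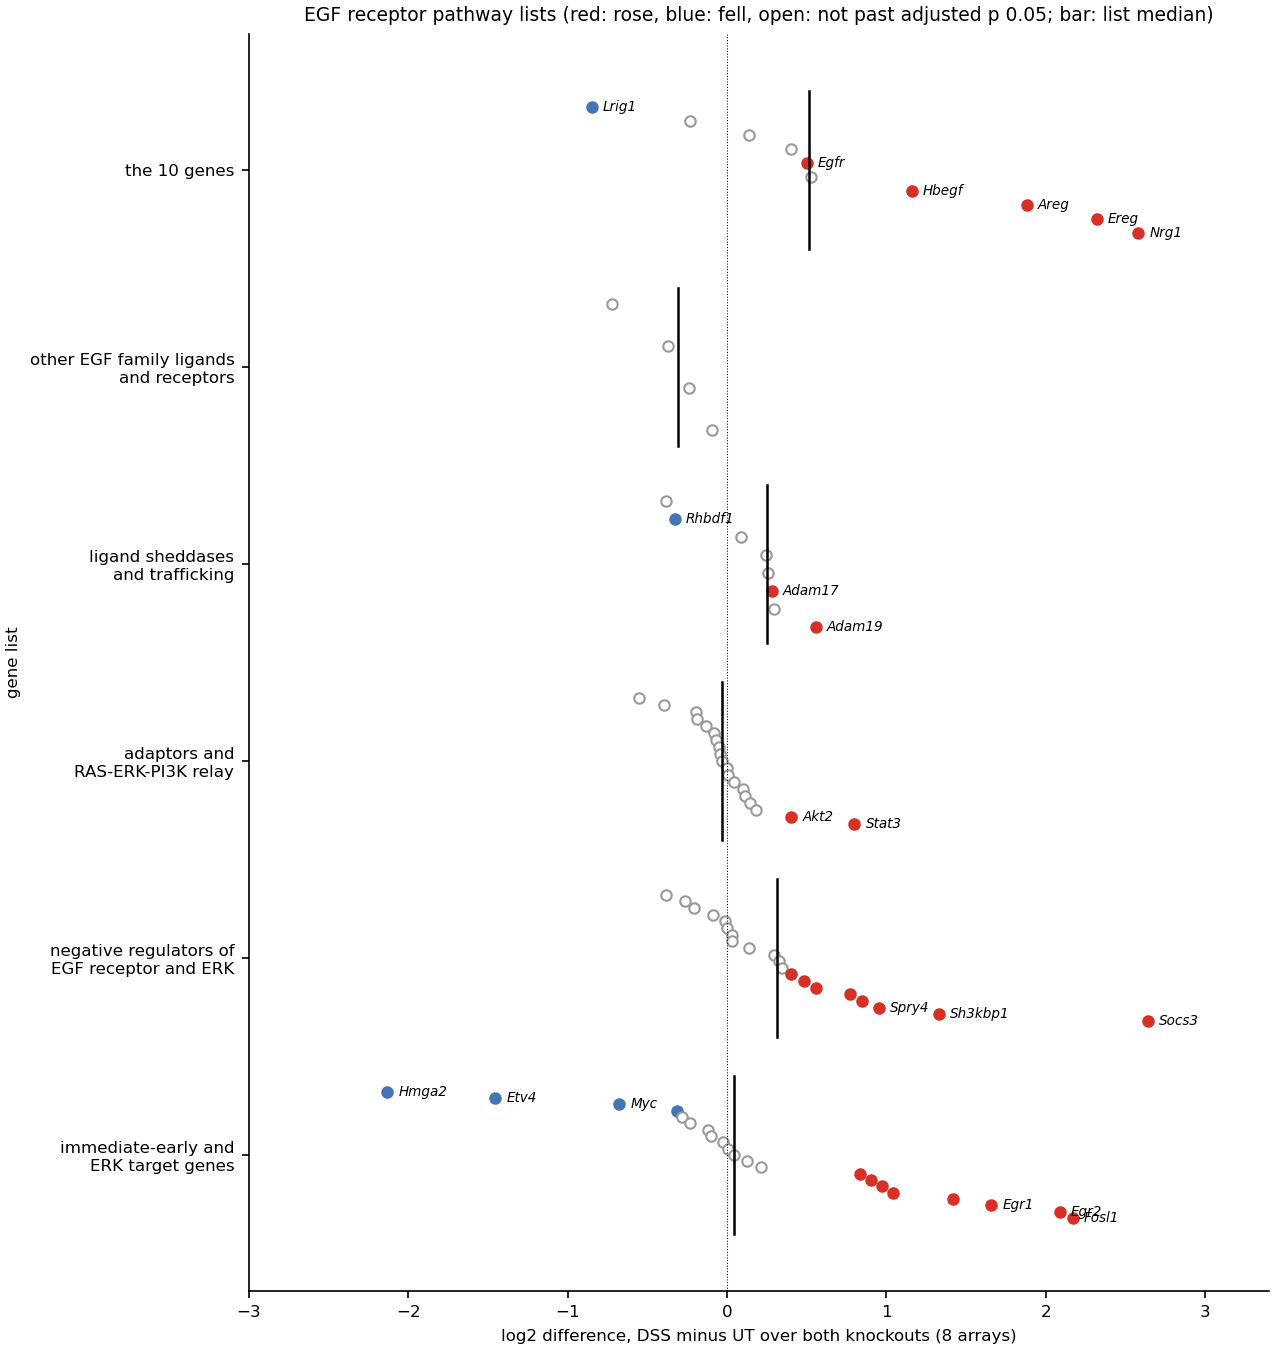
Log2 difference of DSS minus UT over both knockouts for every tested gene of the 10 and of the 5 pathway lists, with the list median as a bar. Nrg1, Ereg, Areg and Hbegf lie between 1.16 and 2.58, and the ligands that did not pass, Epgn, Tgfa and Btc, between 0.14 and 0.53. Lrig1 is at -0.85. The negative regulators lie on both sides of 0, from Lrig3 at -0.38 to Socs3 at 2.64. The relay genes lie between -0.55 and 0.80, and Hmga2 and Etv4 at -2.13 and -1.45.

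Markers of other cell types moved with DSS in the knockouts. Over both knockouts 12 of 12 neutrophil, 12 of 13 macrophage, 11 of 13 T, NK and innate lymphoid, 10 of 12 fibroblast, 9 of 10 endothelial, 9 of 12 mast cell and basophil and 4 of 7 enteric neuron and glia markers rose, while 9 of 11 crypt base markers fell. Of epithelial markers 4 of 12 rose, of colonocyte markers 1 of 12 fell, of squamous markers 1 of 12 rose, and of smooth muscle markers 0 of 10 passed. Among all genes 13.3% rose and 15.8% fell. In the mast cell list Kit fell. The summed neutrophil level was 1.06 to 1.08 times the 75th percentile signal in ATF6aKO UT and 3.77 to 5.45 in ATF6aKO DSS, and 0.557 to 0.989 in ATF6bKO UT and 25.2 to 26.5 in ATF6bKO DSS. Areg and Nrg1 rose in both knockouts, and their DSS arrays overlapped between the knockouts. For Ereg and Hbegf the DSS arrays of ATF6aKO were above those of ATF6bKO. How the levels of these genes relate to the neutrophil sum was not tested.

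Between the WT groups 14.7% of all genes were higher and 17.0% lower on the arrays titled DSS. On these arrays 4 of 10 endothelial and 2 of 7 enteric neuron and glia markers were higher and 0 lower. Of mast cell and basophil markers 2 of 12 were higher, close to the share of all genes, and 1 lower. Of crypt base markers 4 of 11 were lower and 1 higher. Of smooth muscle 3 of 10, of epithelial 3 of 12 and of colonocyte markers 2 of 12 were higher and 0 lower. Of fibroblast markers 1 of 12 was higher and 2 lower. Of T, NK and innate lymphoid markers 1 of 13 was lower, and of squamous markers 0 of 12 passed. The summed neuron and glia level was 6.37 to 8.02 on the arrays titled UT and 11.6 to 13.7 on those titled DSS, and the mast cell sum was 2.18 to 2.72 and 3.55 to 4.05, both without overlap. Of the neutrophil markers 1 was higher and 1 lower on the arrays titled DSS, 0 of 13 macrophage markers passed, and the summed neutrophil level was 0.604 to 0.844 and 0.615 to 1.84. The neutrophil and macrophage marker sums overlapped between the WT groups. The fibroblast sum, given beside the stromal ligand Nrg1, was 145 to 256 on the arrays titled UT and 126 to 150 on those titled DSS, against 156 to 216 on the knockouts' UT arrays and 258 to 353 on their DSS arrays. The crypt base sum, given beside Lrig1, was 17.3 to 18.3 on the knockouts' UT arrays and 8.07 to 11.7 on their DSS arrays. On the WT arrays titled UT it was 15.2 to 16.2 and on those titled DSS 12.3 to 14.8, without overlap, where Lrig1 levels overlapped. Among the DSS arrays it was 8.07 to 9.38 in ATF6bKO and 10.6 to 11.7 in ATF6aKO, with Lrig1 means of 2.91 and 2.89. The squamous sum was highest on an ATF6bKO DSS array on which Epgn was at -3.46, inside the range of the other arrays. The part that cell composition has in the results for the 10 genes was not tested.

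**Figure D4:**
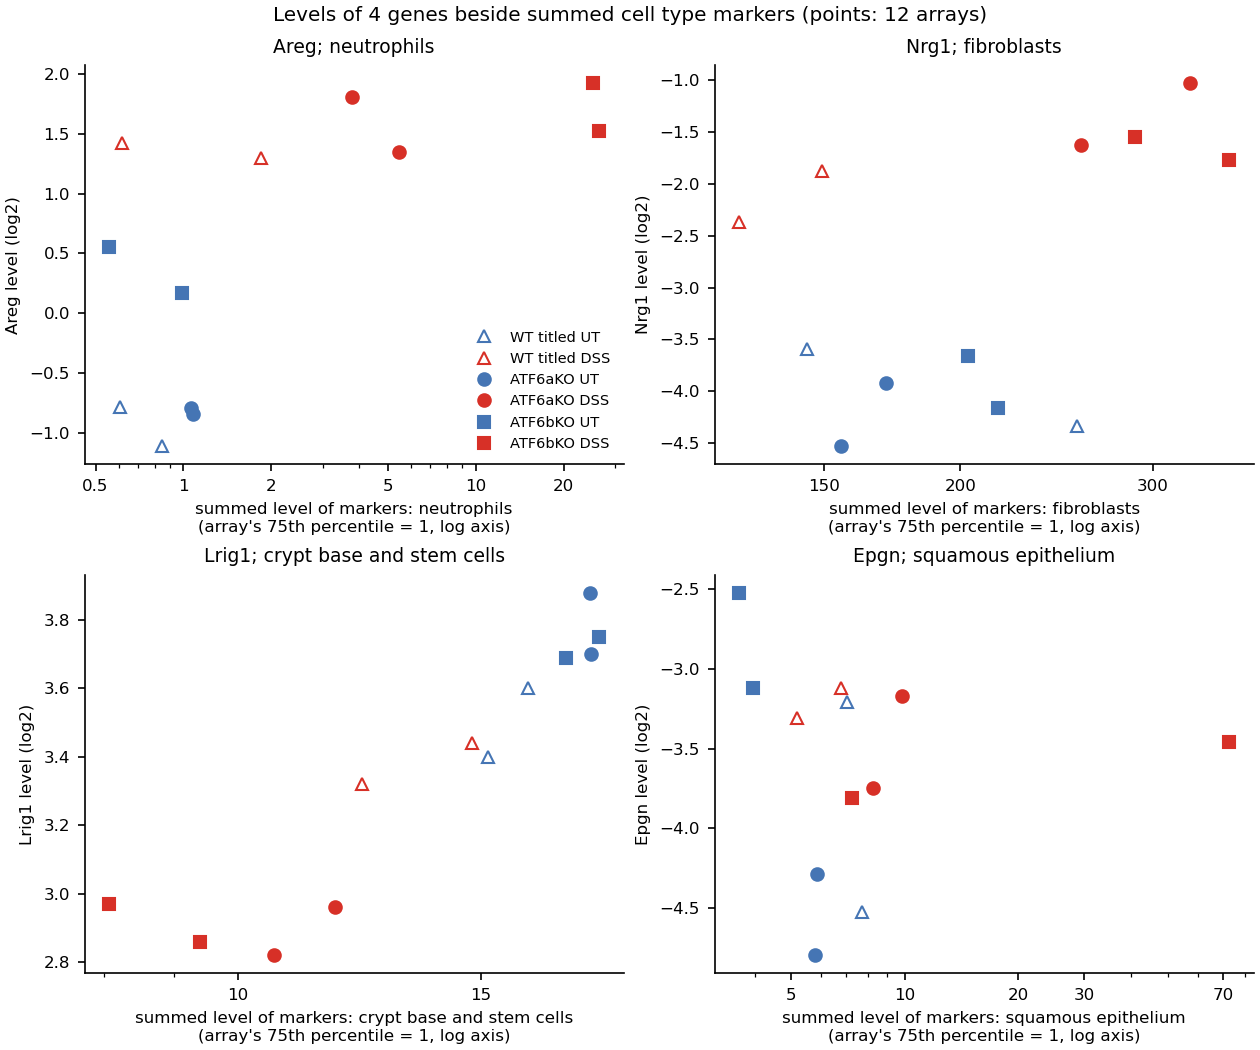
Levels of Areg, Nrg1, Lrig1 and Epgn on the vertical axes against the summed level of the markers of 1 cell type on logarithmic horizontal axes, 1 point for each of 12 arrays. Areg was at 1.30 and 1.42 on the WT arrays titled DSS with a neutrophil sum under 2, and between 1.35 and 1.92 on the knockouts' DSS arrays with sums from 3.77 to 26.5. Lrig1 and the crypt base sum were both lower on the knockouts' DSS arrays than on the rest, while between the WT groups only the sum did not overlap.

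Likeness of pattern was measured by Pearson's r over the 12 arrays after each genotype's mean was subtracted, against 14574 named genes. It is a description, since all genes share the arrays and the contrast between the treatment groups. Among the 10 genes, Areg, Ereg, Hbegf and Nrg1 were alike in every pair, from 0.918 for Areg and Nrg1 to 0.971 for Ereg and Hbegf, and Lrig1 ran against Nrg1 at -0.929. Among the genes closest to Areg were Rxrg (0.987), a retinoid X receptor gene, and Tmod2 (0.981). Closest to Ereg were Bnc2 (0.979), Hbegf (0.971) and Fosl1 (0.968), and closest to Hbegf were Zfp423 (0.981), Ereg (0.971) and Nos3 (0.959). Closest to Nrg1 were Sfrp1 (0.988), a secreted WNT antagonist, Nos3 (0.983) and Rnf183 (0.979). Closest to Egfr were Tshz3 (0.972), Mfsd1 (0.969) and Dcaf12l1 (0.966), and closest to Lrig1 were Cobl (0.989), Grhl2 (0.989), an epithelial transcription factor, and Slc27a2 (0.988).

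Ordered by group mean, the DSS groups and the WT group titled DSS held the top 3 places for Areg, Ereg, Hbegf, Nrg1 and Egfr, and the bottom 3 for Lrig1. These are the genes that passed for DSS over both knockouts, so the order of the knockout groups largely follows from that call. For Egfr the lowest of the top 3 places and the next group overlapped (ATF6aKO DSS 1.68 and WT titled UT 1.66), and the highest single array was one titled UT (2.15). The order for Egfr also depends on the probe. Its probes of another RefSeq transcript were lower in the WT group titled DSS than in that titled UT (-0.69 and -0.37). The further probe of the same transcript was higher (0.55). For Hbegf the WT group titled DSS overlapped ATF6bKO UT (1.52). Within those top places, arrays of neighbouring groups overlapped for Areg (ATF6bKO DSS 1.72, ATF6aKO DSS 1.58 and WT titled DSS 1.36), so their order is not resolved. For Hbegf the DSS arrays of ATF6aKO (mean 2.82) were above those of ATF6bKO (2.14), which were above the WT arrays titled DSS (1.76). For Ereg the DSS arrays of ATF6aKO (mean -2.61) were above the WT arrays titled DSS (-3.35), which overlapped those of ATF6bKO (-3.91). Epgn had overlapping arrays between every pair of neighbours in its order, from ATF6bKO UT (-2.82) to ATF6aKO UT (-4.55). Tgfa and Btc had their highest means in the 2 WT groups, and Erbb3 in the 2 ATF6bKO groups. This holds for the probe that stood for each gene. The other probe of Tgfa was lowest on a WT array titled UT (-5.12). A further probe of Erbb3 was highest on a WT array titled DSS (-2.31), while its remaining probes had their highest means in the ATF6bKO groups.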

How the data were processed

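RNA from 12 colon samples was measured on 12 one-colour arrays. Per the file headers, the authors quantified spots with Agilent Feature Extraction (10.7.1.1, per the submitters' processing notes); the deposited intensity used is the processed signal, background-subtracted and not scaled between arrays. The deposited value table holds log2 values centred on each probe's mean, by the authors, with unknown scaling between arrays. In 8 of its 12 columns the values are those of another sample's array, the WT columns those of the other WT group. It served only as an alternative, each column taken as the array it equals. Its column medians ran from -0.465 to 0.242. Which assignment is wrong was not settled.

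The 10 genes and all lists were chosen with earlier results of these data known. Outlier spots and control spots were left out, log2 levels were set against the array's 75th percentile, and spots of a probe were averaged. Accessions were named through RefSeq (GRCm38.p6), which named 25182 of 41174 probes. Accessions differ between file versions for 5471 probes. Genes were tested with limma 3.58.1 in R 4.3.3 (lmFit, eBayes), Benjamini-Hochberg over 23214 genes, threshold 0.05, and the scripts were tested on simulated data. Comparisons within a genotype and between responses used all 12 arrays with 6 group means, and the others 8 arrays with 2 terms. Named genes were the 10 genes, up to 3 genes each way per pathway list with the largest difference over both knockouts (the others named by value were chosen after their values were seen), and the 3 most alike genes, of which 1 is not reported here. The files hold no mean signal, so the normexp alternative (offset 50) used median signals. The number of arrays limits the precision.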

Additional observations from a re-analysis of the deposited data

How the results depend on the processing

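Of 1850 values of the 10 genes under the alternatives, 1735 kept their direction where called and their side of the threshold, 63 no longer passed, 48 newly passed and 4 turned. Most values that kept their side of the threshold had not passed in the main fit, and only values that had passed there could be lost. With the WT groups exchanged, 5 genes passed for each response difference against WT in place of 0 (beside 27.8% and 29.3% of all genes), and for ATF6bKO Areg (3.67), Ereg (3.77) and Hbegf (1.48) turned. The response difference of ATF6aKO and WT gave 1 gene, Lrig1, under the strict filter, quantile normalization and normexp (15.5%, 9.56% and 11.6% of all genes), and that of ATF6bKO and WT gave 2 with normexp (13.1% of all genes) and 1 with quantile normalization (17%). For ATF6aKO minus WT 6 genes passed with the authors' deposited values, beside 54.2% of all genes, and Lrig1 turned (0.56, adjusted p = 0.0479), while the median of all genes moved to 0.56. ATF6bKO minus WT gave 2 genes without a filter on dim probes (17.5% of all genes) and 2 with the replicate block (15.2%). ATF6aKO minus ATF6bKO gave 4 with normexp, beside 56.4% of all genes and an all-gene median of -0.22, and 0 with no filter, the mean of a gene's probes or the replicate block. The WT groups differed in 1 gene when only their own arrays were fitted (2.82% of all genes), which leaves fewer arrays. The causes were not tested.

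Leaving out 1 array at a time gave 5 to 7 genes over both knockouts, beside 16.6% to 28.6% of all genes. It gave 1 to 3 for each knockout minus WT, beside 23.3% to 35.4% in ATF6aKO and 17.8% to 30.3% in ATF6bKO. Between the knockouts it gave 0 to 1, beside 0.142% to 12%. Within a genotype and for the response differences such a fit can leave 1 array in a group, so sizes are given for genes that had passed. In ATF6aKO Areg was 2.17 to 2.62, Ereg 2.83 to 3.99, Hbegf 1.49 to 1.88, Nrg1 2.6 to 3.21 and Lrig1 -0.99 to -0.81. In ATF6bKO Areg was 1.16 to 1.56, Nrg1 2.01 to 2.5 and Lrig1 -0.86 to -0.75. Between the WT groups Areg was 2.14 to 2.47, Ereg 2.07 to 3.01, Hbegf 0.61 to 1.12 and Nrg1 1.46 to 2.21. Calls lost within a genotype are given with each gene above.

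Same-numbered arrays did not deviate together (r from -0.018 to 0.075), so samples share only a number. As a replicate block it lost Lrig1 in ATF6aKO (adjusted p = 0.0673) and ATF6bKO (adjusted p = 0.0553), Hbegf between the WT groups (0.0737) and Egfr over both knockouts (adjusted p = 0.052). Over both knockouts the median of all genes was 0.11 with normexp against -0.01. The strict filter gave no value for Ereg, whose signal without DSS was near background. A fit of only the knockout arrays was added after the label conflict was seen. It gave 5 genes in ATF6aKO, beside 12.5% of all genes, and 4 in ATF6bKO, beside 19.8%. In the main fit 6.38% and 12.9% of all genes passed.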
